A study of Danio rerio with 14 samples.

Results

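Actins, tubulins, their nucleating and capping proteins, and the motors that run along them were examined in zebrafish gastrulae exposed to ethanol. Members were taken by gene symbol: actins and actin-related proteins, alpha-actinins, Arp2/3 subunits, myosin heavy and light chains, tropomyosins, cofilin, profilins, capping proteins, tubulins, kinesins, dynein chains and dynactin subunits. Of 8793 named genes on the Affymetrix Zebrafish Genome Array, 86 belonged to these families, and each was represented by its brightest probe set, averaged over all pools. Only genes with a signal of 200 or more on 3 or more arrays of 1 treatment were tested, which held for 64 of the 86 and for 6016 genes in all.

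The ethanol group was 7 pools of about 20 whole embryos of the TL strain, kept in 100 mM (0.6%) ethanol from 2 hours post fertilization (hpf) and harvested at 8 hpf, an exposure of 6 hours. The control group was 7 pools of untreated embryos of the same strain, age and incubation temperature (28.5°C). Epiboly was slowed by ethanol in the study, so pools of equal age need not be of equal stage, and stage was not tested. No transgene or mutation is named for either group. Pools with the same number in their titles, 1 to 6 and 8, were taken to come from 1 embryo batch, so the pools form 7 pairs. The study's methods allow that a batch was the offspring of a single breeding pair. The signal is a MAS5 intensity on a linear scale, and it is comparable between pools for 1 probe set but not between probe sets. The median signal of an array was 219 to 296 in ethanol pools and 214 to 282 in control pools. Because whole embryos were pooled, fewer cells of a type and less RNA per cell cannot be told apart.

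During epiboly the blastoderm thins and spreads over the yolk cell. An actomyosin ring in the yolk syncytial layer constricts at the margin of the enveloping layer, and arrays of microtubules run through the yolk cell toward the vegetal pole. Arp2/3 nucleates branched actin, nonmuscle myosin II contracts it, kinesins and dynein move cargo and chromosomes along microtubules, and dynactin joins dynein to its cargo. The early embryo also divides rapidly, and spindle kinesins are among its maternal transcripts.

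Few cytoskeleton genes were called as different between ethanol and control pools, and most estimated changes were small, as they were over all probe sets. A gene was called where its p, adjusted by the Benjamini-Hochberg method in a limma fit with embryo batch as a block, was 0.10 or less. By this rule arpc5b, dynll2b and tubb4b were higher with ethanol, and actc1a and tuba8l2 were lower. These 5 are 7.81% of the 64 tested members, and the same rule called 4.36% of all 9240 probe sets (2.36% higher and 2.0% lower). The sets are unlike, since members are the brightest probe set of a named gene and the 9240 include dimmer duplicates and unnamed ones. Their median SE was 0.11 over the members and 0.14 over all probe sets. At an unadjusted p under 0.05 there were 12 members, 5 higher and 7 lower, which is 18.8% against 15.0% of all probe sets. The median log2 change, ethanol minus control, was -0.01 over the members and 0.00 over all probe sets, with 31 members above 0 and 33 below. The estimated change was under 0.25 in size for 47 members, but the 95% interval lay within 0.25 of no change for only 13. The median size of change was 0.13 over the members and 0.14 over all probe sets. It reached 1.5-fold for 2 members, actc1a and the uncalled tubgcp2 (SE 0.46, adjusted p = 0.502, limma). In 5 members all 7 pairs had the same direction (dynll2b and tubb4b higher, actb2, actc1a and actr1b lower), 7.81% against 6.11% of all probe sets. In no member were the 7 ethanol signals all on 1 side of the 7 control signals, a pattern found in 0.357% of all probe sets.

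**Figure D1:**
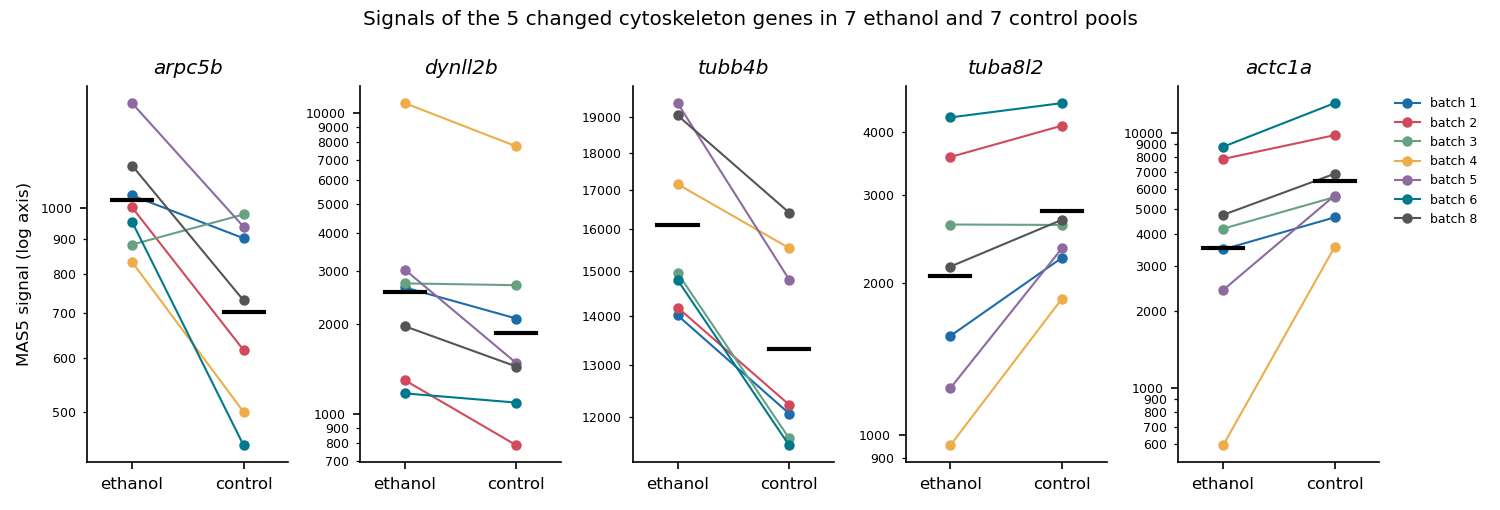
MAS5 signal (log axis, a separate scale for each gene) of the 5 called genes in ethanol and control pools, with a line joining the pools of 1 embryo batch and a black bar at the geometric mean of each group. Every line falls toward the control side for dynll2b and tubb4b and climbs toward it for actc1a, while 1 batch runs the other way for arpc5b and for tuba8l2.

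Of the 4 tested actins 3 had changes below 0, and the muscle-type gene actc1a was called as lower. This gene encodes an alpha-actin of cardiac and skeletal muscle. Its signal in ethanol pools 1 to 6 and 8 was 3485, 7890, 4204, 594, 2415, 8808 and 4761, against 4656, 9782, 5593, 3566, 5668, 13066 and 6903 in the control pools of the same batches. Each ethanol pool was below its own control pool, although the groups overlapped, and batches 2 and 6 were high in both. The log2 change was -0.87 (SE 0.19, n = 7 pairs, adjusted p = 0.0193, limma), or 1.82-fold lower. Ethanol pool 4 had the lowest signal, and without batch 4 the change was -0.58 (adjusted p = 0.00508). The gene was called with each pair left out (adjusted p = 0.00508 to 0.0735). Muscle differentiation genes were dim: of 7 measured, 2 were tested, neither was called (none at an unadjusted p under 0.05), and the 7 summed to 549 to 1110 in ethanol pools and 536 to 892 in control pools.

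The cytoplasmic beta-actins, which form the cortical and contractile filaments of all cells, did not pass the test. The actb2 signal was 39500 to 49500 in ethanol pools (median 47900) and 45700 to 51200 in control pools (median 49900). It was lower with ethanol in 7 of 7 pairs, with a log2 change of -0.10 (95% interval -0.23 to 0.03, adjusted p = 0.469, limma). For actb1 the ethanol pools spanned 38800 to 71200 (median 47600) and the control pools 40400 to 69800 (median 50900), with a log2 change of -0.08 (interval -0.22 to 0.06). The intervals of both beta-actins lie within 0.25 of no change. The other tested striated muscle actin, actc1b, had a change of 0.34 (SE 0.21, adjusted p = 0.487), with the opposite sign to actc1a. Its second tested probe set gave 0.35 (SE 0.31). The skeletal and smooth muscle actins acta1a and acta2 did not reach the signal needed for a test.

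Of 7 tested Arp2/3 subunits, arpc5b rose. It encodes 1 of a pair of alternative ARPC5 proteins, the smallest subunit of the complex. The ethanol pools 1 to 6 and 8 read 1046, 1004, 884, 833, 1433, 956 and 1158, against 903, 617, 980, 499, 940, 446 and 731 in control pools. The signal was higher with ethanol in 6 of 7 pairs, with batch 3 the exception, and the highest control pools lay within the ethanol range. The log2 change was 0.55 (SE 0.14, adjusted p = 0.0393, limma), or 1.47-fold. The call was lost without batch 5 (adjusted p = 0.101), batch 6 (0.131) or batch 8 (0.113). Its partner arpc5a was 3270 to 5140 in ethanol pools and 3500 to 4390 in control pools, with a change of 0.15 (SE 0.08, adjusted p = 0.431) that was above 0 in 6 of 7 pairs.

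The actin-related core and the remaining subunits of the complex did not pass the test. Arp2 (actr2a) and Arp3 (actr3), which form the start of the new branch, had changes of -0.01 (SE 0.11) and -0.07 (SE 0.10). The WD-repeat subunit arpc1a was lower in 5 of 7 pairs at -0.24 (SE 0.09, adjusted p = 0.184), with 4330 to 6670 in ethanol pools and 4600 to 7110 in control pools. The smaller subunits arpc3 and arpc4 had changes of 0.08 and 0.13. Over the 7 tested subunits the median change was 0.08, with 4 above 0 and 3 below.

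None of the 7 proteins that cap, sever or feed actin filaments was called by limma, and none had an unadjusted p under 0.05. The profilins supply actin monomers to growing ends. The signal of pfn1 was 17400 to 23800 in ethanol pools and 18000 to 22100 in control pools, a change of 0.05 (interval -0.11 to 0.20). For pfn2a it was 15000 to 20600 in ethanol pools and 14800 to 22300 in control pools, a change of -0.14 (interval -0.31 to 0.02). The severing protein cfl1l, a cofilin, had a value of 0.03 (interval -0.11 to 0.18). Of the capping subunits, the alpha subunit capza1a stood at -0.01 (SE 0.08), and the beta subunit capzb had the largest value in this family, -0.27 (SE 0.14, adjusted p = 0.401), lower in 6 of 7 pairs.

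Nonmuscle myosin II is the motor of the epiboly ring. None of its chains passed the test (no member of either myosin family had an unadjusted p under 0.05), and the intervals of myl12.1 and myl6 stayed within 1.5-fold of no change. The regulatory light chain myl12.1 had 21900 to 29500 in ethanol pools (median 27400) and 23900 to 28600 in control pools (median 25300), a log2 change of 0.05 (interval -0.09 to 0.20). The essential light chain myl6 had 3850 to 6100 in ethanol pools and 4020 to 6190 in control pools, a change of -0.12 (interval -0.29 to 0.05). The heavy chains were less well measured. The change of myh10 was 0.16 (SE 0.14), and that of myh9a was -0.46 (SE 0.29, adjusted p = 0.482), where ethanol pools 5 and 8 read 54.9 and 172, below the control range of 235 to 386, and the other ethanol pools lay within it or at its top. Without batch 5 the value for myh9a was -0.18, and without batch 3 that for myh10 was 0.03. Tropomyosins, which coat actin filaments, lay at 0.01 (tpm3, SE 0.09), 0.03 (tpm4a, SE 0.13) and -0.17 (tpm4b, SE 0.22). The sign of tpm3 turned with another scaling of the arrays, and tpm4b was at -0.02 without batch 1.

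**Figure D2:**
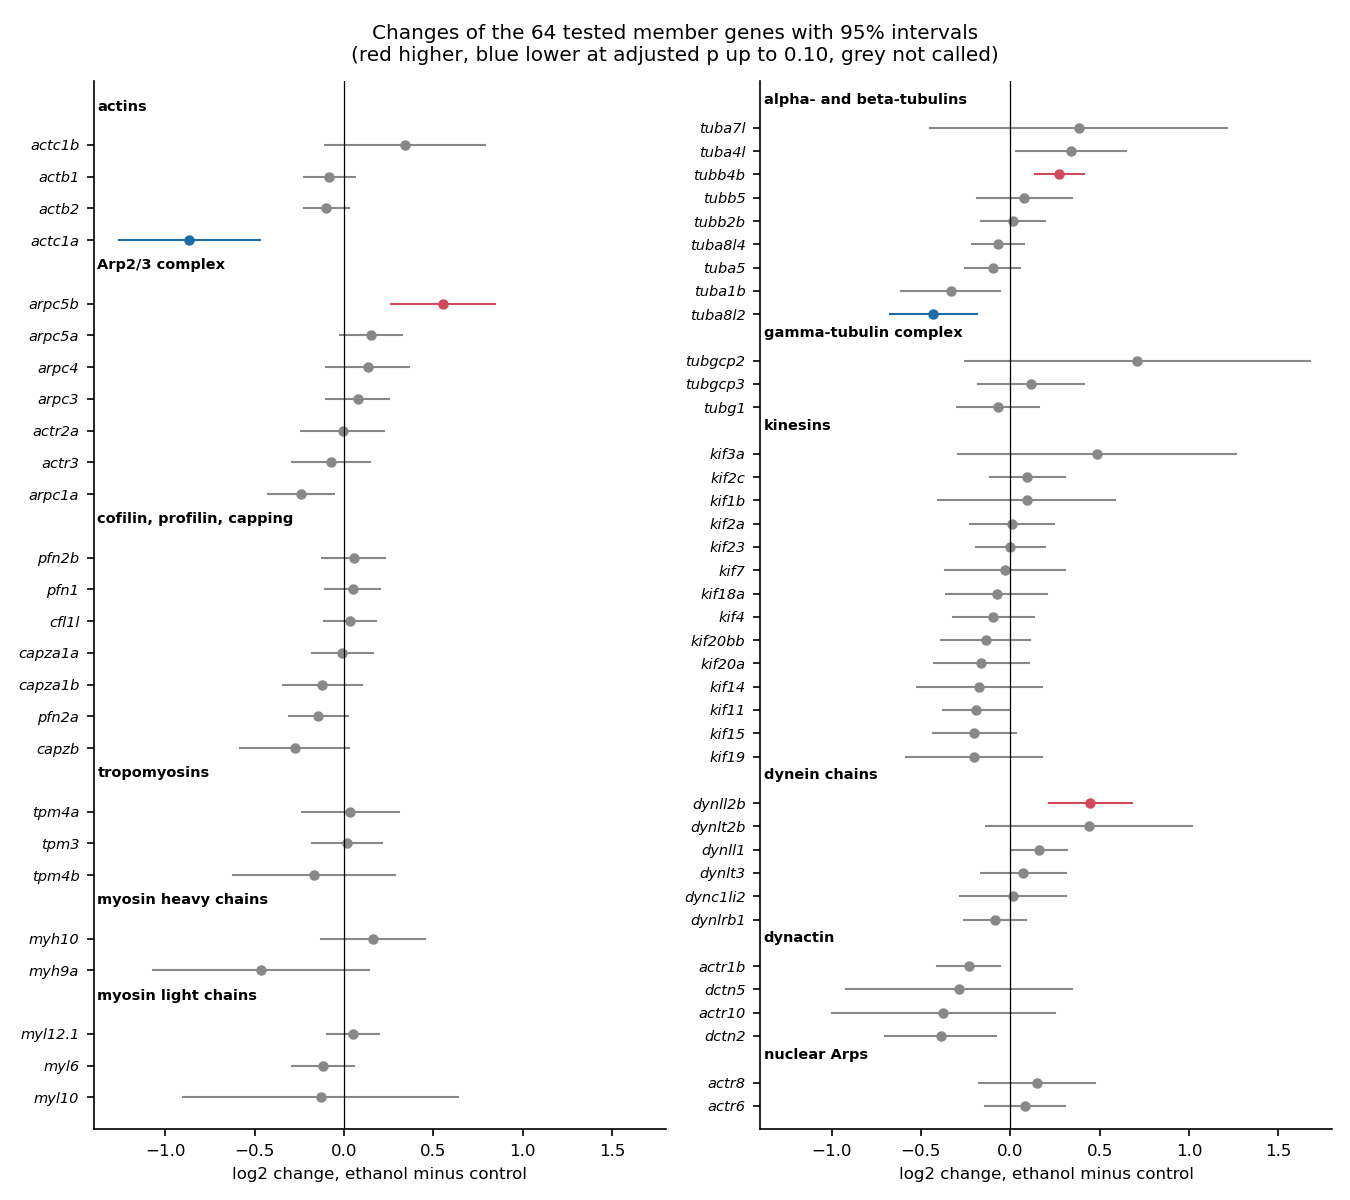
Log2 change, ethanol minus control, of the 64 tested genes by family, as the limma estimate (point) with its 95% interval (line) over 7 pairs. The coloured points are the 3 higher and 2 lower genes, and 43 of the 64 intervals lie within 0.5 of no change.

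The alpha- and beta-tubulins form the dimers of the microtubule wall, and 1 of each kind was called, in opposite directions. The beta-tubulin tubb4b had 14023, 14194, 14965, 17151, 19422, 14806 and 19061 in ethanol pools 1 to 6 and 8, against 12063, 12227, 11613, 15549, 14816, 11488 and 16418 in control pools. It was higher with ethanol in 7 of 7 pairs. The log2 change was 0.27 (SE 0.06, adjusted p = 0.0305, limma), or 1.21-fold, and it was called with each pair left out (adjusted p = 0.031 to 0.0958). Its second probe set gave 0.26 (SE 0.08, adjusted p = 0.1), also a call, with 6 of 7 ethanol pools above their control. The first of these probe sets is of a class whose probes can match related transcripts. The second is of another class that may match isoforms or related genes, so signal from other beta-tubulins cannot be told apart in either.

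The alpha-tubulin tuba8l2 fell. Its ethanol pools read 1572, 3570, 2620, 953, 1238, 4279 and 2161, against 2250, 4120, 2615, 1865, 2349, 4569 and 2677 in control pools. Only in batch 3 was the ethanol pool the higher one, and narrowly so, while batches 4 and 5 had the widest gaps. The log2 change was -0.43 (SE 0.12, adjusted p = 0.0582, limma), or 1.35-fold lower. The call was lost without batch 4 (adjusted p = 0.172), batch 5 (0.184) or batch 8 (0.108).

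The brightest tubulin probe sets of each kind did not pass the test. The alpha-tubulin tuba8l4 had 45900 to 67400 in ethanol pools and 48700 to 61700 in control pools, a change of -0.07 (interval -0.21 to 0.08). The beta-tubulin tubb2b had 25300 to 42700 in ethanol pools and 26900 to 37600 in control pools, a change of 0.01 (interval -0.17 to 0.19) whose sign turned with another scaling. A pair of further alpha-tubulins had an unadjusted p under 0.05 and missed the adjusted threshold: tuba1b at -0.33 (SE 0.13, adjusted p = 0.225) and tuba4l at 0.34 (SE 0.15, adjusted p = 0.273). The 9 tested tubulins had a median of 0.01, with 5 above 0 and 4 below. The 5 include tuba7l (0.38, SE 0.40), which reached 200 on 5 ethanol arrays and 1 control array. It was thus tested only through the group where it was higher, so its sign adds nothing to that count. Both tuba1b and tuba4l were named after their values were seen, and the probe set of tuba1b, like the first of tubb4b, is of the class that can match related transcripts. A second probe set of tuba1b, outside that class, gave -0.35 (SE 0.16, adjusted p = 0.322, limma). It was lower in 5 of 7 pairs, against 6 of 7 on the first. The probe sets differed by pair, with batches 1 and 2 at 0.20 and 0.28 on the second and -1.03 and -0.39 on the first.

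Microtubules start from gamma-tubulin rings. Gamma-tubulin itself (tubg1) had 856 to 1290 in ethanol pools and 927 to 1230 in control pools, a change of -0.07 (SE 0.11). The ring subunit tubgcp3 had a change of 0.11 (SE 0.14), although a second probe set for the gene read -0.57 (SE 0.25, adjusted p = 0.283) at lower signals. The value of tubgcp2, 0.71 (SE 0.46, adjusted p = 0.502), was the largest positive change of any member and rested on control pool 1, whose signal was 12.2. It was 0.22 without batch 1. The gene reached 200 on 4 ethanol and 2 control arrays, so it was tested only through the group where it was higher.

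No kinesin among 14 tested was called by limma, and 1, kif11, had an unadjusted p under 0.05. This motor pushes spindle poles apart. It had 3850 to 6640 in ethanol pools (median 5730) and 4520 to 8140 in control pools (median 6510), and was lower with ethanol in 6 of 7 pairs (log2 change -0.19, SE 0.09, adjusted p = 0.301). Its adjusted p ranged over the settings from 0.0965, without batch 1, to 0.787. With a pair left out, kif11 was called in 1 of 7 fits. The central spindle motor kif23 had 4080 to 8560 in ethanol pools and 4400 to 7770 in control pools and showed a change of 0.00 (interval -0.19 to 0.19). Another motor of cytokinesis, kif20a, had -0.16 (SE 0.13) on one probe set and 0.11 (SE 0.11) on the other. The chromosome arm motor kif4 likewise had -0.10 and 0.08. Other spindle motors were near these values, with kif15 at -0.20 (SE 0.11), kif14 at -0.17 (SE 0.17) and kif18a at -0.08 (SE 0.14). A second probe set of kif15 gave -0.02 (SE 0.14), with 4 of 7 pairs higher with ethanol. The kinesins that take microtubule ends apart, kif2a and kif2c, were at 0.01 (SE 0.11) and 0.10 (SE 0.10), and kif7, which acts in Hedgehog signalling, was at -0.03 (SE 0.16). Of the 14, 9 lay below 0 and 5 above, with a median of -0.09 and a range of -0.20 to 0.48. The highest value was that of kif3a, a motor of transport in cilia, at 0.48 with an SE of 0.37. Its signals were 142 to 331 in ethanol pools and 102 to 243 in control pools. With 200 reached on 3 ethanol and 2 control arrays, kif3a was tested only through the group where it was higher.

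Within the dynein motor, the light chain dynll2b rose. It is an LC8 light chain, which dynein shares with other protein complexes. Its signal was 2638, 1297, 2721, 10803, 3024, 1173 and 1961 in ethanol pools 1 to 6 and 8, against 2079, 788, 2684, 7758, 1478, 1093 and 1440 in control pools. Every ethanol pool was above its own control pool, and batch 4 stood far above the other batches in both groups. The log2 change was 0.45 (SE 0.11, adjusted p = 0.039, limma), or 1.36-fold. The call was lost without batch 2 (adjusted p = 0.103) or batch 5 (0.132), and the second probe set of the gene gave 0.19 (SE 0.11, adjusted p = 0.44), higher in 6 of 7 pairs. The other LC8 gene, dynll1, had 33100 to 53400 in ethanol pools and 25100 to 50600 in control pools, a change of 0.16 (SE 0.07, adjusted p = 0.298). Its adjusted p ranged over the settings from 0.0832, with quantile normalization, to 0.829. It was called with 0 of 7 pairs left out. Of the 6 tested dynein chains 5 were above 0 (median 0.12), and the exception was the roadblock chain dynlrb1 at -0.09 (SE 0.08). The heavy chain dync1h1, the motor itself, was not tested, since its signal was 11.9 to 256 in ethanol pools and 23.8 to 187 in control pools.

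All 4 tested dynactin subunits were below 0, though none was called by limma. The median change was -0.33, against 0.00 over all probe sets, of which 50.2% were below 0. The filament subunit actr1b (Arp1) was lower with ethanol in 7 of 7 pairs, at 2610 to 3940 in ethanol pools and 3140 to 4440 in control pools, with a log2 change of -0.23 (SE 0.09, adjusted p = 0.184). The shoulder subunit dctn2 (dynamitin) had 379 to 940 in ethanol pools and 549 to 933 in control pools, with a change of -0.39 (SE 0.15, adjusted p = 0.206), and was lower in 5 of 7 pairs. These 2 subunits had an unadjusted p under 0.05. The pointed-end subunits actr10 (-0.37, SE 0.30) and dctn5 (-0.29, SE 0.30) were dim and were each lower in 5 of 7 pairs. The actin-related proteins of nuclear remodelling complexes, actr6 and actr8, had changes of 0.08 (SE 0.11) and 0.15 (SE 0.16).

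**Figure D3:**
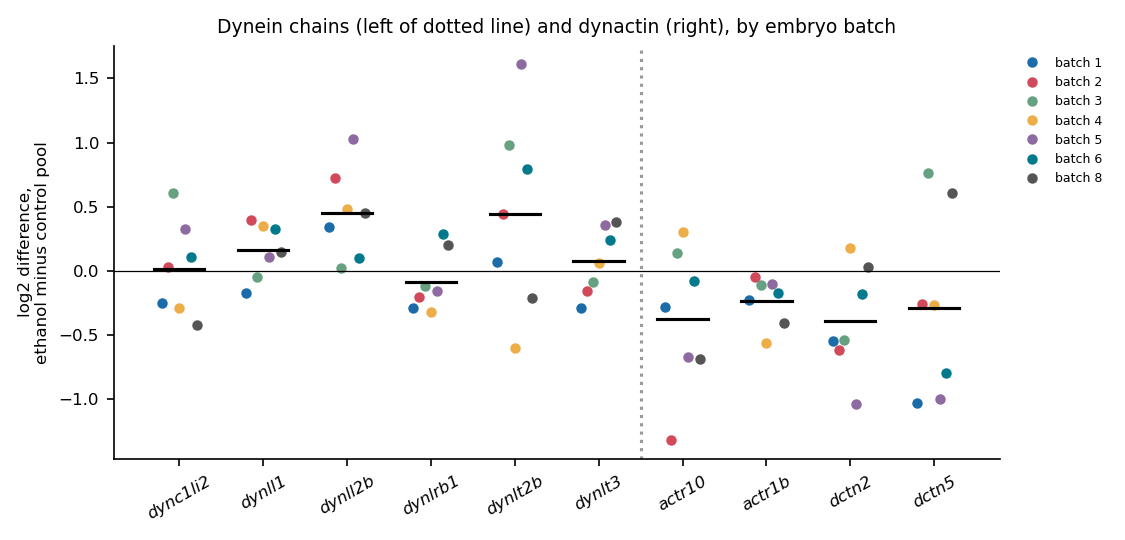
Log2 difference, ethanol minus control pool, in each of the 7 embryo batches for the tested dynein chains and dynactin subunits, with a black bar at the mean over batches. All 7 points are above 0 for dynll2b and below 0 for actr1b, and the points of the other genes fall on both sides.

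Genes that regulate these structures were counted in the same way, against array shares of 4.36% called and 15.0% with an unadjusted p under 0.05. Of 41 tested actin regulators outside the families, among them coronins and calponins, limma called 0, with a median change of 0.04 and 4 higher and 0 lower at an unadjusted p under 0.05. Of 43 tested microtubule regulators limma called 0, with a median of -0.06, and 3 were higher and 4 lower at that level.

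Among markers of the embryo's layers, most calls were in genes of the yolk syncytial layer. Of 10 such genes on the array, 8 were tested and 6 were lower with ethanol, where 2.0% of all probe sets were. These 6 were 5 apolipoproteins and serpina1l, while the transcription factors hnf4a (-0.05, SE 0.11) and gata6 (-0.19, SE 0.09) were not called, and mxtx2, which was not tested, averaged 161 in ethanol pools and 114 in control pools. The 10 signals summed to 14700 to 44500 in ethanol pools and 32400 to 58400 in control pools, and none of these genes was under 200 on every array. Of 7 enveloping layer genes 1 was lower, anxa1a, and the sums were 211000 to 272000 in ethanol pools and 224000 to 246000 in control pools. The median change of the 7 was 0.10. Not called were cldne (0.37), krt8 (0.19), krt18a.1 (0.15), krt4 (0.10), krt5 (-0.003) and anxa1c (-0.245). Among 5 ectoderm and 3 tested germ cell genes 1 each was higher, and among 7 axial mesoderm genes 1 was lower. The ratio of 3' to 5' control signals, a measure of RNA integrity, was higher with ethanol by 1.82 in log2 for GAPDH (6 of 7 pairs, exact sign-flip permutation test, two-sided p = 0.0625, where the smallest possible p is 0.0156), although 16 of those 28 signals were under 200. For the acta1 control the difference was 1.57 (5 of 7 pairs, p = 0.156 by the same exact test), with 22 of 28 signals under 200. The study's methods give a high RNA integrity number, measured by electrophoresis before labelling, for every sample. The part of these differences in the 5 called genes was not tested.

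The members were also compared between embryo batches. By limma's moderated F test 17 of the 64 members differed between the 7 batches at an adjusted p of up to 0.10, 26.6% against 22.3% of all probe sets. The fold between the highest and the lowest batch, each the geometric mean of its ethanol and control pool, is given for members whose mean reached 200 in every batch. Its median was 1.85 (1.36 to 9.05) in 15 of the 17, without myl10 and dynlt2b, and 1.41 in 39 of the other 47 tested members. A larger fold in the members that passed was set in advance, since the batch test uses the same batch means. Batch 4 was the highest or the lowest batch in 10 of the 17. In 6 genes batch 4 was highest and batch 2 or 6 lowest, and in 3 it was the reverse. These counts were not made over all probe sets that differed between batches, so the pattern cannot be called particular to the members.

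Of the 5 genes called for ethanol, 4 also differed between batches by the moderated F test. The share of all called probe sets that did so was not counted, so this is not read as a trait of these genes. The widest case among the 4 was dynll2b, 9.05-fold higher in batch 4 than in batch 2 (F = 50.9, adjusted p = 1.55e-07), and its second probe set gave F = 56.6. The muscle-type actin actc1a ran the other way, 7.37-fold higher in batch 6 than in batch 4 (F = 14.3, adjusted p = 0.000234), and tuba8l2 shared that order at 3.32-fold (F = 16.5, adjusted p = 0.000111). Both folds average over treatments, and the gap was narrower among control pools. In batches 6 and 4, actc1a read 13066 and 3566 in control pools against 8808 and 594 in ethanol pools. For tuba8l2 these were 4569 and 1865 against 4279 and 953. For tubb4b the highest batch was 1.36-fold above the lowest, and its second probe set did not pass the batch test (adjusted p = 0.218). Only arpc5b did not pass the batch test (adjusted p = 0.133).

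Other genes differed between batches without a called difference between treatments. The regulatory light chain myl10 had its highest signals in batches 2 and 6 (816 and 443 in the ethanol pools, 839 and 705 in the control pools), and its treatment change was -0.13 (SE 0.37). It reached 200 on 2 ethanol and 3 control arrays, so no fold between batches is given for it. The capping subunit capza1a was 2.02-fold higher in batch 4 than in batch 6 (F = 11.8, adjusted p = 0.000632) and had a treatment change of -0.01. The tropomyosin tpm4a was 3.05-fold higher in batch 6 than in batch 4, with a treatment change of 0.03. The beta-actin actb1, a gene often used to scale other measurements, was 1.78-fold higher in batch 4 than in batch 2 (adjusted p = 0.00325), while actb2 spanned 1.16-fold and did not pass the batch test (adjusted p = 0.466).

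**Figure D4:**
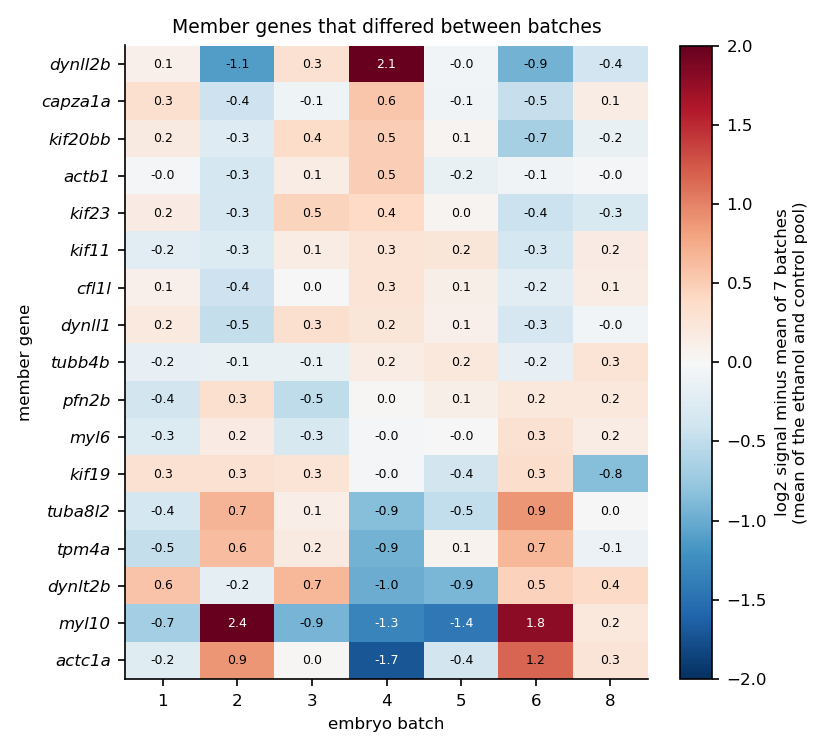
Log2 signal of the 17 genes that differed between embryo batches, as each batch's mean of its ethanol and control pool minus the mean of the 7 batches (colour and number, colour limited to 2 either way). Batch 4 and batches 2 and 6 sit at opposite ends for dynll2b, capza1a and kif20bb and, with the order turned, for actc1a, tuba8l2 and tpm4a.

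Among the genes with more than 1 probe set, 17 had 2 that were tested. The signs were the same in 11 and opposite in 6: actr2a, dynlt3, kif20a, kif4, tubb2b and tubgcp3. In these 6 no probe set was called.

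The 22 members that were not tested were dim in both groups. Their group means were 16.4 to 150, and 11 never reached a signal of 200 on any array. Proteins of striated or smooth muscle were among them: actn2b and actn3b (alpha-actinins of the sarcomere), myl1 and myl7 (light chains of skeletal and heart muscle), myh7 (a heavy chain) and the actins acta1a and acta2. The others were actn1, the light chains myl9b and myl13, tpm1, arpc1b, the tubulins tuba2, tuba8l3, tubb2 and tubb4bl, the neuronal kinesin kif5aa, and the dynein chains dync1h1, dync1i2b, dync1li1, dync2i2 and dynlt5. At this signal a difference was not measurable for them.

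The number of arrays limits these results. The median SE of a change was 0.11 over the members and 0.14 over all probe sets, and 8 members had an SE over 0.25. No member was called by limma when batch was left out of the fit (4 had an unadjusted p under 0.05), and none without the mean-variance trend (10 had one). With median centring of the arrays actc1a was the only call, and with batch as a random effect arpc5b was.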

How the data were processed

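RNA of 14 pools of whole embryos was hybridised to 1 Affymetrix Zebrafish Genome Array each. The authors made intensity values with MAS5, each array scaled to 1000, and the deposited table holds linear signals without detection calls. The scanned images were not used here. Of 15617 probe sets, 115 controls were left out. The array annotation gave 1 symbol to 10802, several to 135 and none to 4680. Of the symbols 10718 matched a current gene identifier and 1 was updated. Of 116 member probe sets 81 were tested, and 6 shared with another gene were left out. Probe sequences were not mapped again, and no coordinates are given.

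Probe sets with a signal of at least 200 on at least 3 of 7 arrays of a treatment were tested (9240, with 6262 left out). The limma model (version 3.58.1, R 4.3.3) took log2 signals, a treatment term and a batch term, and its eBayes step used a trend (6 residual and 12.7 prior degrees of freedom). P-values were adjusted by Benjamini-Hochberg over all probe sets, and 0.10 was the threshold. A moderated F test served for batch. The steps were tested on simulated data. Plots used matplotlib 3.10.9 (Python 3.11.15).

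Pools were paired by the number in their titles and by the study's description of independent experiments. Deviations from treatment means correlated at 0.112 to 0.378 between pools of the same number. In 6 of 7 batches the ethanol pool correlated more with its own control pool than with any other control pool. Each control pool was not compared in turn with the other ethanol pools. The exception was batch 1, at 0.112 against 0.165 between its ethanol pool and another control pool. The labels do not say whether the numbered pools of a group came from separate parents. Treatment p-values of the main fit rest on the spread of the ethanol minus control differences over the 7 pairs, moderated over all probe sets.

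Named genes were all called members, the 2 brightest and the most changed member of each family, the 4 with the largest batch F, and genes with probe sets of opposite sign. Others are given for their role or place in a count. Members and lists were chosen with earlier results of these data known. Alternatives were quantile normalization, median centring, other signal minimums (100, 400, none), 100 added to each signal, eBayes without a trend, batch left out, batch as a random effect (statmod 1.5.0), adjusted p of up to 0.05 or 0.20, every tested probe set, and each pair left out.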

Additional observations from a re-analysis of the deposited data

Results flagged for a closer look

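Signals of the 39 named genes were searched for a pool far from the others of its treatment by Dixon's criterion (the gap to the nearest pool over the whole range). Taken on linear signals, it marked 6 of 78 groups. A chance rate of about 1 in 20 holds for normally distributed signals, which was not tested here. Some genes, dynll2b among them, were named partly for their batch differences, so these counts are not set against that rate.

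Batch 4 held 4 of the 6. The LC8 light chain dynll2b stood at 10800 in ethanol pool 4, with the other ethanol pools at 1170 to 3020, and at 7760 in control pool 4, with the other control pools at 789 to 2680. The beta-actin actb1 was 71200 in ethanol pool 4, with the others at 38800 to 48900. The myosin light chain myl12.1 was 28600 in control pool 4, with the others at 23900 to 25600. On its second tested probe set that pool read 15556, inside the control range of 9690 to 16200.

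Batch 2 held the other two. The Arp2/3 subunit arpc1a was 6670 in ethanol pool 2, with the others at 4330 to 5230, and the kinesin kif20a was 972 in control pool 2, with the others at 1430 to 1570. On the second kif20a probe set control pool 2 read 1345, inside the control range of 795 to 2170. What sets these pools apart was not tested.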

How the results depend on the processing

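The count of called members, 5, was 4 to 7 with quantile normalization (6, with 4 higher), signal minimums of 100, 400 or none (5 each), 100 added before the log (5), adjusted p of up to 0.05 (4) or 0.20 (7), and every tested probe set counted (6). The pairing mattered: without the replicate block the count was 0 (adjusted p = 0.427 for arpc5b to 0.855 for dynll2b), and with the block as a random effect it was 1, arpc5b. It was 1, actc1a, with median centring and 0 with eBayes without a trend; the cause was not tested. Over all probe sets these 4 settings called 28, 177, 103 and 43, against 403, and the share of calls that were higher was 89.3%, 58.8%, 45.6% and 67.4%, against 54.1%. With each pair left out the count of members was 2 to 6 (2 without batch 5 and 3 without batch 8). The median change of members was -0.035 to -0.011 with a pair left out and -0.034 to 0.00 otherwise. The 17 members that differed between batches were 7 without the trend and 15 to 17 otherwise.

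Of 620 alternative values for the 39 named genes, 573 kept their direction and side of the threshold, 26 lost the call, 2 gained it and 19 turned sign, in 7 genes with changes of at most 0.083. Median centring gave kif23 -0.024, tpm3 -0.01 and tubb2b -0.01. With each pair left out, actr2a was -0.054 to 0.041, actr6 -0.017 to 0.116, capza1a -0.034 to 0.032, kif23 -0.055 to 0.09, tpm3 -0.076 to 0.081, tpm4a -0.042 to 0.141 and tubb2b -0.032 to 0.111. Dim signals limit precision: the largest SE, 0.46, was that of tubgcp2, with signals of 112 to 310 in ethanol pools and 12.2 to 238 in control pools.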
